A study of Mus musculus with 8 samples.

Results

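Glycolysis, lactate and hypoxia response genes were examined in mature CD8 single positive (CD8SP) thymocytes that lack or retain Ndrg3. The set holds 39 genes, picked by name from the 47937 genes of the counts table because Ndrg3 is known as an effector of lactate and hypoxia signalling, and all 39 were among the 14633 genes with enough reads to be tested. RNA-seq was done on CD8SP thymocytes sorted as TCRb+ and MHC-I high from the thymus of mice aged 6 to 7 weeks. Ndrg3ctrl mice carried 1 floxed and 1 wild-type Ndrg3 allele with Lck-cre (Ndrg3 +/fl;Lck-cre+), and Ndrg3TKO mice carried 2 floxed alleles with the same Cre (Ndrg3 fl/fl;Lck-cre+), with 4 biological replicates per group. Both groups therefore expressed Cre from the proximal Lck promoter, which is active in the T lineage from early thymocytes onward, and control cells keep 1 intact Ndrg3 allele where Cre has acted. The question addressed here is whether transcripts of this pathway differed between the groups.

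Glycolysis converts glucose to pyruvate in the cytosol, and lactate dehydrogenase turns pyruvate into lactate, which leaves the cell through monocarboxylate transporters. When oxygen is plentiful, prolyl hydroxylases of the EGLN family mark the transcription factor subunit HIF-1α for capture by VHL and degradation. When oxygen falls, HIF-1α escapes, pairs with ARNT and binds a short core sequence, ACGTG or GCGTG, near genes for glucose uptake, glycolysis, lactate export and mitochondrial restraint. NDRG3 protein is likewise a substrate of this oxygen sensor and binds lactate. Naive and resting T cells rely mainly on oxidative metabolism, and activated T cells turn glycolysis up. Much of the control of HIF-1α is at the level of protein, which these data did not measure.

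Promoters of the set were rich in the HIF core sequence. The 250 bases before a RefSeq transcription start (build GRCm38.p6) were read for 37 of the 39 genes, with 56 windows in all. Bnip3l and Slc2a3 had no window. ACGTG was searched on both strands and was present in 48.2% of member windows and in 16.6% of all 32851 windows. GCGTG was present in 53.6% and 28.2%. The palindrome CACGTG, an E-box bound by MYC, MAX and USF proteins, holds ACGTG on each strand and was present in 12.5% and 6.02%. Member windows also had more G and C, with a median of 61.8% against 52.4%, and more CG pairs, with a median of 15 against 6, and the shares were not matched for this. Tpi1, Vhl and Gpi1 had neither core in their windows. A match describes the letters only.

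The windows of 4 known HIF targets are shown because they carry the cores although their transcripts stood at very different levels in these cells. They were chosen after the values were seen. Capitals mark ACGTG and GCGTG on either strand (the reverse strand reads CACGT and CACGC), and each sequence runs 5′ to 3′ toward the start site of the gene. The windows are chr7:46845554-46845803 on the plus strand for Ldha, which has 2 windows, chr11:120948817-120949066 on the plus strand for Slc16a3, chr8:45999851-46000100 on the minus strand for Ankrd37, and chr7:138909507-138909756 on the minus strand for Bnip3.
Ldha: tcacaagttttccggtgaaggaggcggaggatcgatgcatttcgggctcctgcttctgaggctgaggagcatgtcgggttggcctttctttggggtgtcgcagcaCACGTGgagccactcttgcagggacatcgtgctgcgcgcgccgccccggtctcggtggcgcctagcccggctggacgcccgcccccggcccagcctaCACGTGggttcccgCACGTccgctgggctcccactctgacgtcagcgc
Slc16a3: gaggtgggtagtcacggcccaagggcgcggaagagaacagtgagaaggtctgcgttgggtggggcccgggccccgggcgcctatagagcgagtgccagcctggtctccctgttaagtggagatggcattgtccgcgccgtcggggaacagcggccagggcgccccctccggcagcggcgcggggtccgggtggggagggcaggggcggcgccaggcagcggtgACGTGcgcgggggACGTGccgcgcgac
Ankrd37: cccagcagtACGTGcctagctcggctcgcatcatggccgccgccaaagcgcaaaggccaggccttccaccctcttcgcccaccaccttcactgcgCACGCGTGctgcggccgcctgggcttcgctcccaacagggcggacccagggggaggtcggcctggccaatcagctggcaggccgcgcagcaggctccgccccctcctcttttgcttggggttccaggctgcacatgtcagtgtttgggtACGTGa
Bnip3: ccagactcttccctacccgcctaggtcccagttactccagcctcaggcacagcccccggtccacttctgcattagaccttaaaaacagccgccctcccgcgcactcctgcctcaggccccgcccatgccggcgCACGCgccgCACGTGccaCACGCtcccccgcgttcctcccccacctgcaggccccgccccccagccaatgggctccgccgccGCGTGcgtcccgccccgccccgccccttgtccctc
Ldha held 2 CACGTG palindromes, at 145 and 48 bases before the start, and a further ACGTG on the reverse strand 34 bases before it. Slc16a3 held ACGTG at 27 and 14 bases before the start. Ankrd37 held 2 copies of ACGTG and 2 of GCGTG, and Bnip3 held 1 palindrome and 3 copies of GCGTG.

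Libraries held 21126698 to 32668081 counts, and Ndrg3ctrl replicate 2 was the shallowest. Ndrg3 itself, the deleted gene, was at 79.3, 81.5, 81.2 and 80.9 normalised CPM (counts scaled by library size) in Ndrg3ctrl replicates 1 to 4 and at 50.4, 48.4, 53.1 and 55.3 in Ndrg3TKO. The groups did not overlap, and Ndrg3 fell by 0.64 on the log2 scale (SE 0.0526, edgeR quasi-likelihood test, adjusted p = 1.04e-05). Reads over all Ndrg3 exons were counted, whether or not an exon was flanked by loxP sites. Markers of mature CD8 thymocytes summed to 9400 to 11000 CPM. CD4 lineage markers summed to at most 1.88, myeloid markers to 5.6, thymic epithelial markers to 3.05 and erythroid markers to 0.232. Natural killer and gamma delta T cell markers summed to at most 16, of which Trdc held 10.4 to 14.1. In that list Klrb1c was at 0.11 to 0.639 CPM in Ndrg3ctrl and 1.48 to 2.04 in Ndrg3TKO. It passed the test (log2 difference 2.62, SE 0.358, edgeR adjusted p = 0.00149). Zbtb16 went the other way, at 0.146 to 0.335 and 0.0314 to 0.0921 CPM, with too few reads to be tested. The part of these cells in the results was not tested. The 4 B cell markers, of which 1 was at 0 in all libraries and 1 (Cd79b) had enough reads to be tested, summed to 11.1 to 13.2 CPM in Ndrg3ctrl and 8.42 to 9.43 in Ndrg3TKO, and their part in the results was not tested. Immature thymocyte markers summed to 126 to 156 CPM in Ndrg3ctrl and 146 to 178 in Ndrg3TKO. Proliferation markers summed to 1100 to 1200 CPM in Ndrg3ctrl and to 1070, 1160, 768 and 1100 in Ndrg3TKO replicates 1 to 4. Y-linked genes were read at 353 to 413 CPM in Ndrg3ctrl replicate 2 and Ndrg3TKO replicates 2 and 3 and at no more than 0.0731 in the others, so sexes were mixed within groups.

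No gene of the set passed the test between Ndrg3TKO and Ndrg3ctrl. With edgeR at an adjusted p under 0.05, 0 of 39 were called, against 1.15% of all tested genes (168 genes, 116 higher and 52 lower in Ndrg3TKO). DESeq2 also called 0 of 39, against 2.11% of all tested genes. At an unadjusted p under 0.05, 3 of the 39 passed (Tpi1, Pdk1 and Aldoc), against 10.9% of all tested genes. The number called among all genes was 100, 110 and 104 without Ndrg3ctrl replicates 1, 3 and 4, and 106, 90 and 107 without Ndrg3TKO replicates 1, 3 and 4, and the number of members called was 0 in each of the 8 fits that left out a library. In log2 units, the median fold change of the set was -0.029, beside -0.003 over all tested genes. Of the members 25 were lower and 14 higher, and of all tested genes 7493 were lower and 7140 higher. For 2 of the 39 (Slc16a3 and Aldoc) the groups did not overlap, which was so for 7.04% of all tested genes.

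The 95% interval of the fold change lay within 1.25-fold either way for 31 of 39 members, against 52.5% of all tested genes, and within 1.5-fold for 35, against 74.3%. The median SE was 0.0693 for the members and 0.0916 over all tested genes, and these shares were not matched for level. The members outside 1.5-fold were Aldoc, P4ha2, Slc16a3 and Ankrd37, all of low level. Hk2, Tpi1, Ldhb and Egln3 had intervals between these limits. The plot of differences gives every member, with Ndrg3 and Ndrg1 for scale.

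**Figure D1:**
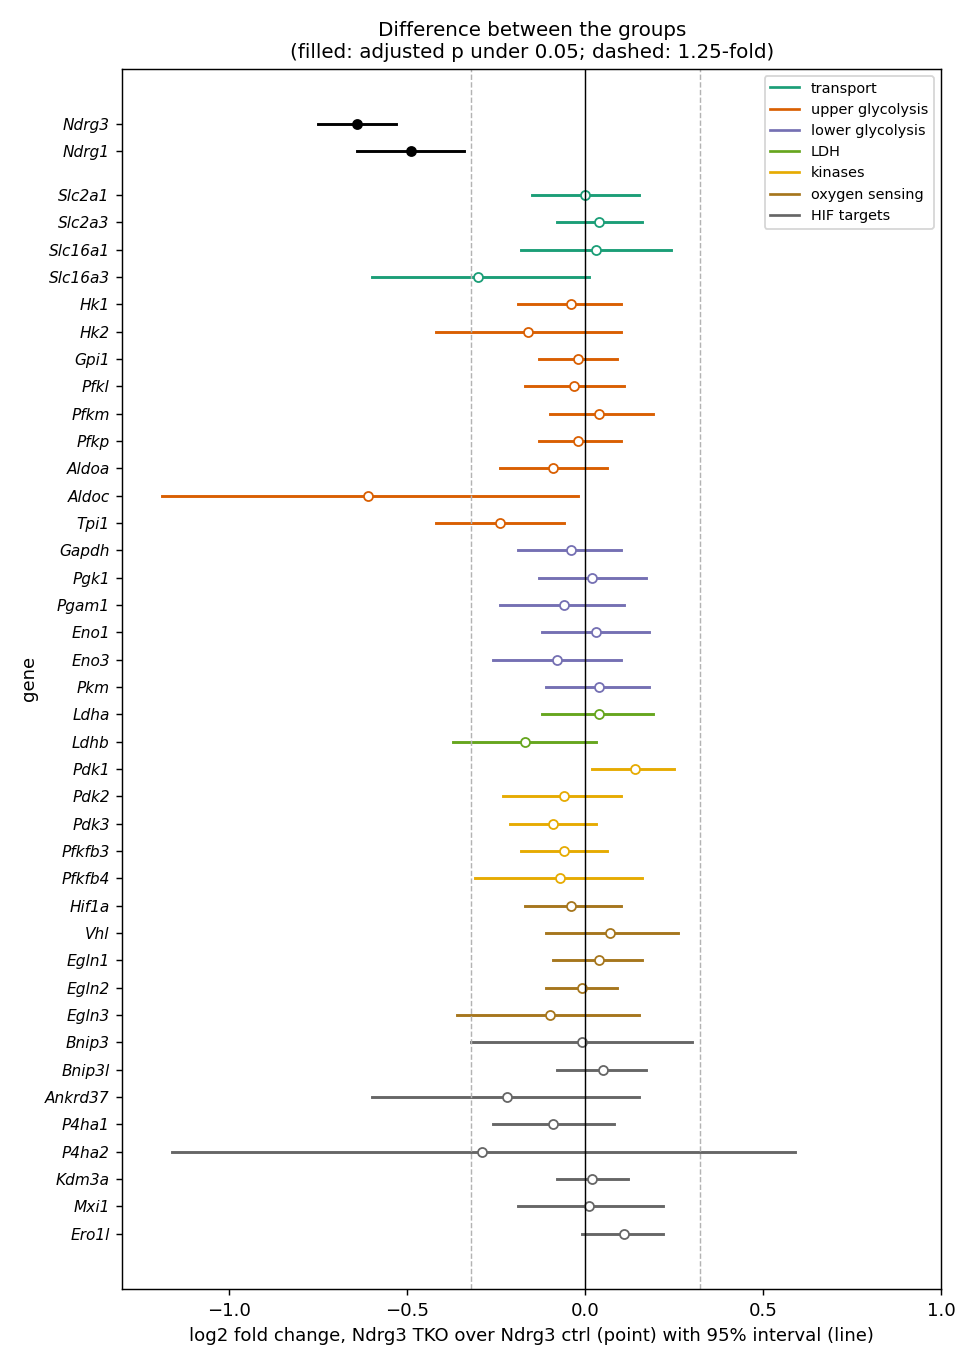
Fold change of each gene between Ndrg3TKO and Ndrg3ctrl (log2, horizontal axis, n = 4 per group) with its 95% interval, coloured by role. Filled points passed the test (Ndrg3 and Ndrg1), open points did not (all 39 members), and dashed lines mark 1.25-fold.

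**Figure D2:**
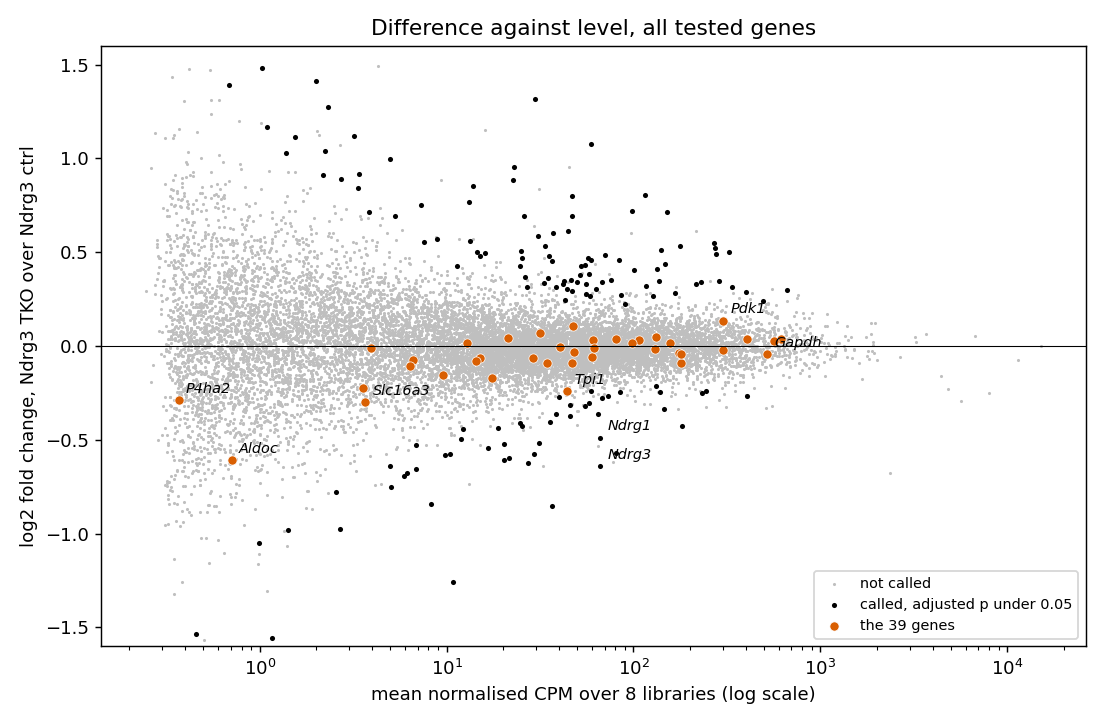
Fold change (log2) against mean normalised CPM over 8 libraries (log axis) for the 14633 tested genes, of which 29 lie outside the vertical axis. The 39 members (orange) lie among the genes not called (grey), with the wider values at low level (Aldoc, P4ha2), and called genes are black.

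Levels were compared between genes as CPM per kilobase of the principal mRNA. Glycolytic enzymes led, with Gapdh at 364, Eno1 at 280, Pkm at 252 and Ldha at 229 CPM per kb, followed by Aldoa at 119 and Gpi1 at 105. Gapdh remained first when the whole exonic length was used instead, and Eno1, Pkm and Ldha changed places, so that their order was not settled. The lowest 3 by both lengths were Slc16a3 at 0.847, Aldoc at 0.255 and P4ha2 at 0.165 CPM per kb. The 17 enzymes from hexokinase to lactate dehydrogenase summed to 3180 ± 246 normalised CPM in Ndrg3ctrl and 3170 ± 144 in Ndrg3TKO (SD, n = 4). In bulk RNA of this kind, fewer cells expressing a gene and less RNA per cell cannot be told apart.

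**Figure D3:**
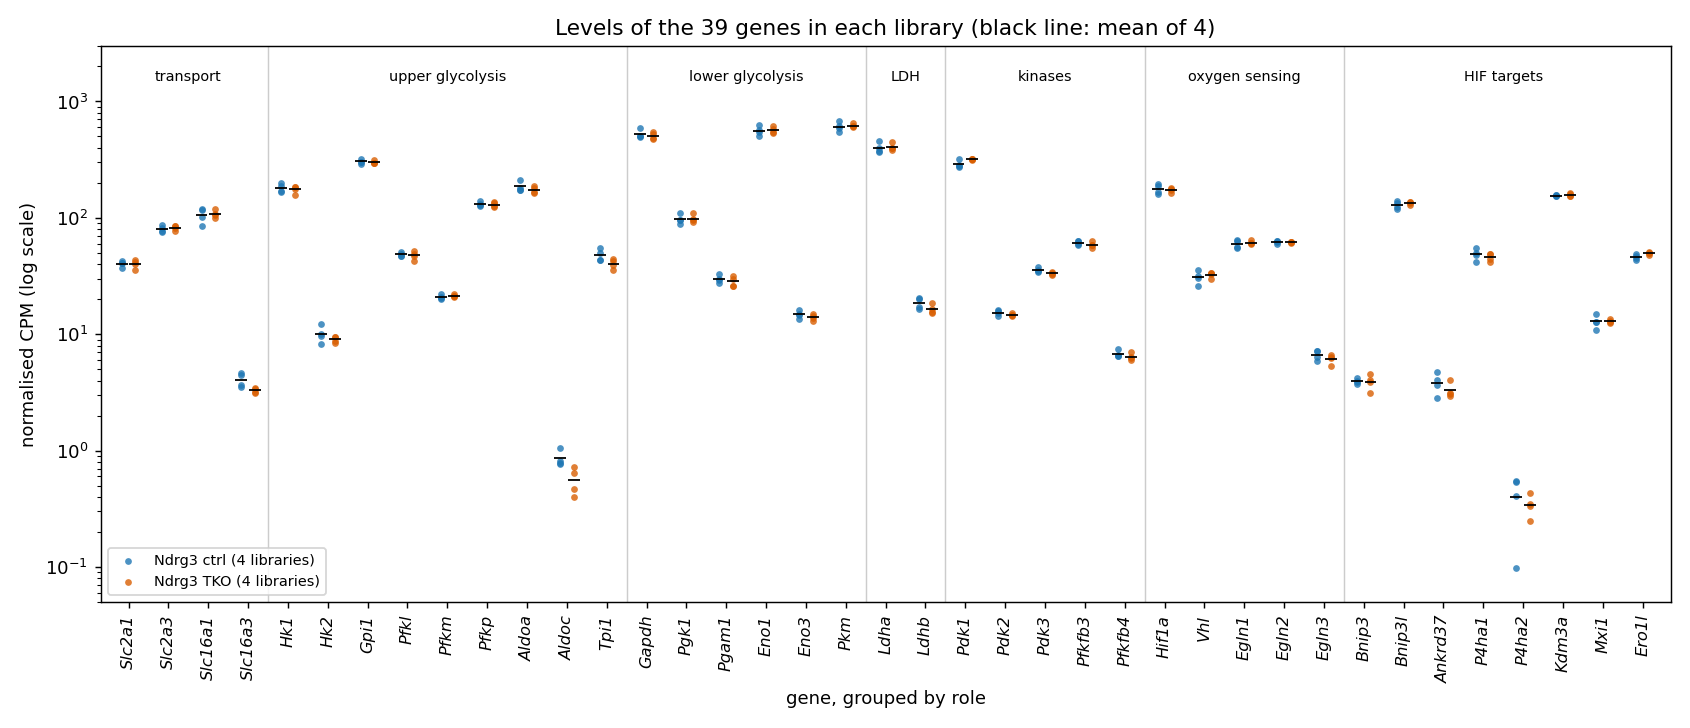
Normalised CPM (log axis) of the 39 genes in each of the 8 libraries, grouped by role, with the mean of each group of 4 as a black line. Gapdh, Eno1, Pkm and Ldha stand highest and Aldoc and P4ha2 lowest, and Ndrg3ctrl (blue) and Ndrg3TKO (orange) points overlap for all genes but Slc16a3 and Aldoc.

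Glucose enters T cells through GLUT1 (Slc2a1) and GLUT3 (Slc2a3). Slc2a1 was at 41, 42.6, 40.7 and 36.8 normalised CPM in Ndrg3ctrl and at 39.8, 43.3, 41.7 and 35.9 in Ndrg3TKO. The groups overlapped fully, and the interval of the fold change was 0.900 to 1.11 (edgeR adjusted p = 0.993). Slc2a3 ranged from 74.9 to 86.2 CPM over all 8 libraries. Per kilobase of mRNA Slc2a3 made up 62.1% ± 1.14 of the pair in Ndrg3ctrl and 62.8% ± 1.45 in Ndrg3TKO, but per kilobase of all exons 49% and 49.8%, so which transporter was more abundant depended on the length used.

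Lactate crosses the plasma membrane through MCT1 (Slc16a1) and MCT4 (Slc16a3), the latter typical of cells that export much lactate. Slc16a1 was at 117, 119, 101 and 84.6 CPM in Ndrg3ctrl and at 107, 118, 105 and 99.5 in Ndrg3TKO. Ndrg3ctrl replicate 4 was the lowest of the 8, and the ranges overlapped (interval 0.881 to 1.18-fold, edgeR adjusted p = 0.941). Slc16a3 was at 3.52, 3.64, 4.6 and 4.43 CPM in Ndrg3ctrl and at 3.48, 3.36, 3.14 and 3.22 in Ndrg3TKO. Every Ndrg3TKO value lay below every Ndrg3ctrl value, though by as little as the gap from 3.48 to 3.52. The log2 difference of -0.30 (SE 0.141) did not pass the test (edgeR adjusted p = 0.466). Of the MCT pair, Slc16a1 carried 94.9% to 97.2% of the level per kilobase of mRNA in all 8 libraries.

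Hexokinases trap glucose in the cell as glucose 6-phosphate. Hk1, the broadly expressed form, ranged from 156 to 201 CPM, and Hk2, the inducible form, from 8.22 to 12.3. Hk2 was at 8.22, 9.68, 12.3 and 9.95 CPM in Ndrg3ctrl and at 9.51, 8.67, 9.49 and 8.41 in Ndrg3TKO. Ndrg3ctrl held both the lowest and the highest value, and the log2 difference was -0.16 (SE 0.121, edgeR adjusted p = 0.686). Per kilobase of mRNA, Hk1 made up 95.2% to 97% of the pair in every library.

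Gpi1, which isomerises glucose 6-phosphate, ranged from 292 to 323 CPM. Phosphofructokinase commits the sugar to glycolysis, and its platelet-type gene Pfkp led with 61% ± 1.64 of the family per kilobase of mRNA in Ndrg3ctrl and 60.8% ± 1.17 in Ndrg3TKO, followed by Pfkl and Pfkm. With the whole exonic length Pfkp was at 42.1% in Ndrg3ctrl and still led. Aldolase splits the hexose, and Aldoa, at 164 to 213 CPM, made up over 99% of the pair by either length. Aldoc, the brain-type aldolase, was at 0.771, 0.786, 0.812 and 1.06 CPM in Ndrg3ctrl and at 0.729, 0.471, 0.401 and 0.645 in Ndrg3TKO. The groups did not overlap, but these values rest on 12 to 29 counts per library, and the log2 difference of -0.61 (SE 0.273) did not pass (edgeR adjusted p = 0.443).

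Triose phosphate isomerase (Tpi1) interconverts the products of aldolase and had the smallest p of the set. Tpi1 was at 43.7, 54.9, 49.4 and 43.6 CPM in Ndrg3ctrl and at 35.9, 44.1, 39.5 and 42.7 in Ndrg3TKO. Only Ndrg3TKO replicate 2 reached into the Ndrg3ctrl range. The log2 difference was -0.24 (SE 0.0837, interval 0.749 to 0.960-fold), with an unadjusted p = 0.013 and an edgeR adjusted p = 0.279. Of the 9 upper glycolysis genes, 8 were lower and 1 (Pfkm) was higher in Ndrg3TKO, beside 7493 lower and 7140 higher of all tested genes. Their median log2 fold change was -0.044 beside -0.003 over all genes, and 0 passed. Glycolytic enzymes varied together by library, as given below, so these signs are not separate results.

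The 6 genes of lower glycolysis, which take triose phosphates to pyruvate and yield ATP, had log2 differences from -0.08 to 0.04, and all 6 intervals lay within 1.25-fold. Pyruvate kinase (Pkm) was at 618, 679, 586 and 542 CPM in Ndrg3ctrl and at 621, 647, 616 and 601 in Ndrg3TKO. All Ndrg3TKO values fell inside the Ndrg3ctrl range (interval 0.927 to 1.13-fold, edgeR adjusted p = 0.891). Gapdh ranged from 480 to 590 CPM, Eno1 from 508 to 624, Pgk1 from 88.9 to 111, Pgam1 from 26 to 32.6 and Eno3, the muscle-type enolase, from 13 to 16.1. Counts over Pkm do not separate its M1 and M2 splice forms.

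Lactate dehydrogenase is a tetramer of A chains, which favour lactate formation, and B chains, which favour its oxidation. Ldha was at 396, 454, 379 and 365 CPM in Ndrg3ctrl and at 385, 450, 401 and 399 in Ndrg3TKO. Replicate 2 was the highest in each group, and the ranges overlapped (interval 0.922 to 1.14-fold, edgeR adjusted p = 0.897). Ldhb was at 19.9, 20.5, 16.6 and 17.2 CPM in Ndrg3ctrl and at 15.5, 16.4, 18.6 and 15.3 in Ndrg3TKO. Ndrg3TKO replicate 3 lay between the Ndrg3ctrl values and the other Ndrg3TKO libraries lay below them all (log2 difference -0.17, SE 0.0937, edgeR adjusted p = 0.555). Per kilobase of mRNA Ldha made up 94.1% ± 0.327 of the pair in Ndrg3ctrl and 94.8% ± 0.523 in Ndrg3TKO.

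Pyruvate dehydrogenase kinases switch off pyruvate dehydrogenase, and Pdk1 is a known HIF target. Pdk1 was at 319, 280, 285 and 272 CPM in Ndrg3ctrl and at 319, 318, 318 and 316 in Ndrg3TKO. The Ndrg3TKO libraries lay within 3 CPM of each other, and Ndrg3ctrl replicate 1 stood at their level while the rest of the Ndrg3ctrl libraries were lower. The log2 difference was 0.14 (SE 0.0545, interval 1.01 to 1.19-fold, unadjusted p = 0.0254, edgeR adjusted p = 0.372). Pdk3 was at 35.4, 37.7, 35.1 and 34 CPM in Ndrg3ctrl and at 33.6, 33.2, 32.4 and 34.3 in Ndrg3TKO, a log2 difference of -0.09 (SE 0.058, edgeR adjusted p = 0.619). Pdk2 ranged from 14.3 to 16 CPM.

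Within the kinase family, Pdk1 made up 72.1%, 68.7%, 70.5% and 69.5% of the level per kilobase of mRNA in Ndrg3ctrl and 73.1%, 73.5%, 73.8% and 72.9% in Ndrg3TKO. These shares did not overlap between the groups by either length, and Pdk3 and Pdk2 shares were correspondingly lower. The shares are given without a test, since the 3 kinases were inspected with their values known and beside other families of the set. Shares within a family depend on each other, so these are not separate results. Pfkfb3 and Pfkfb4 encode enzymes that set the level of fructose 2,6-bisphosphate, an activator of phosphofructokinase. Pfkfb3 ranged from 55.1 to 63.7 CPM and Pfkfb4 from 6 to 7.48, and all 5 kinase genes had intervals within 1.25-fold.

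**Figure D4:**
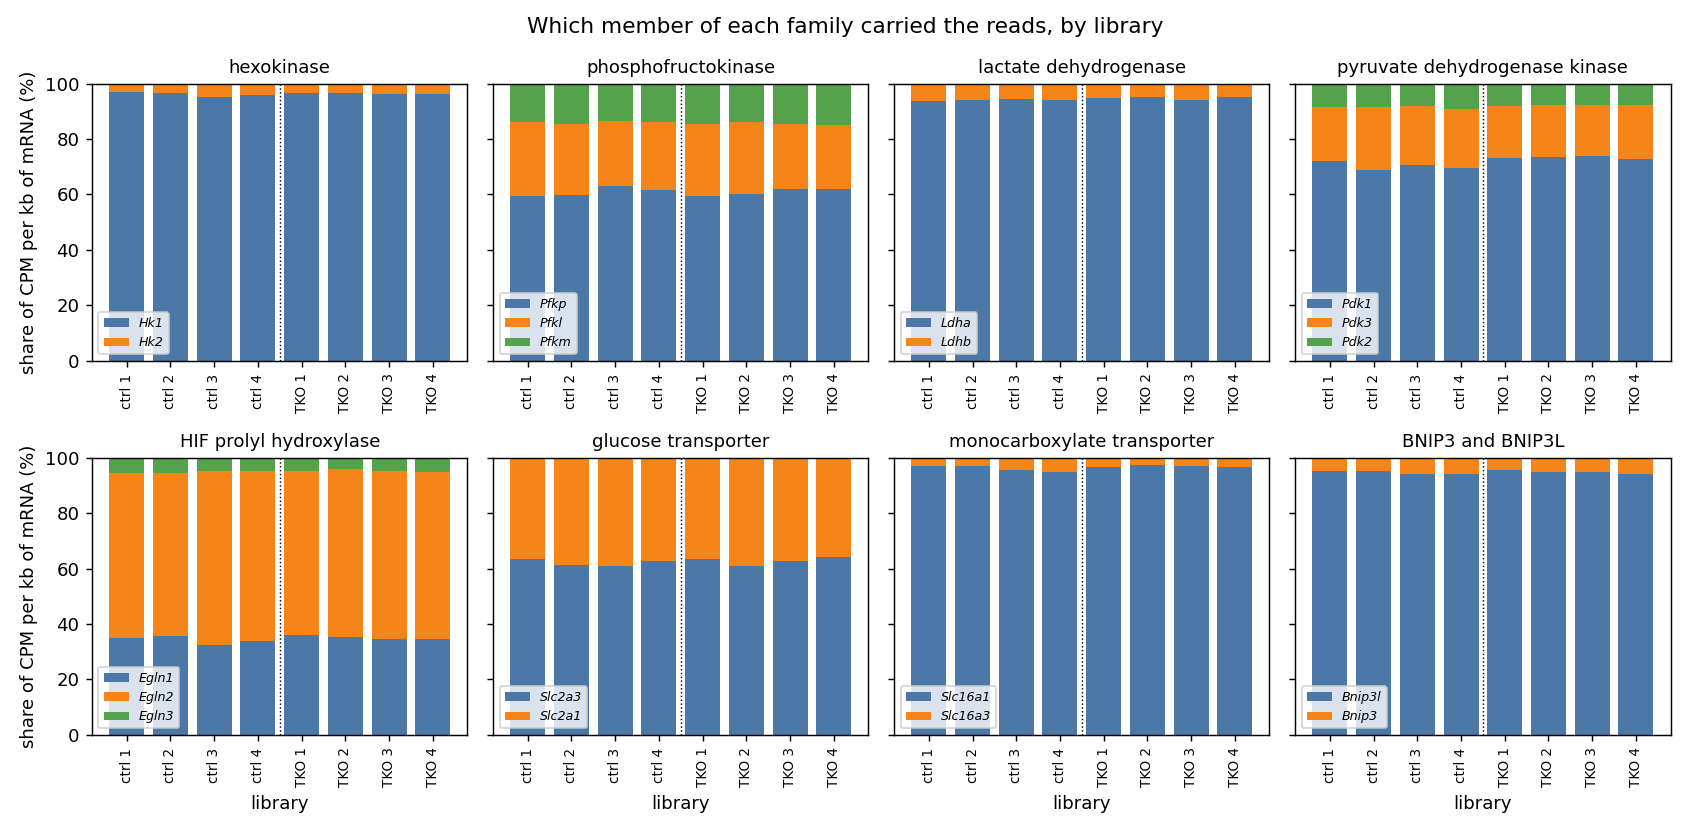
Share (%) of each gene in its family by library, from CPM per kb of principal mRNA, with 4 Ndrg3ctrl bars left and 4 Ndrg3TKO bars right of the dotted line. Hk1, Ldha, Slc16a1 and Bnip3l carried over 93% of their pairs in every library, and Pdk1 ranged from 68.7% to 73.8% of its family.

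None of the 5 genes of oxygen sensing passed the test. Hif1a was at 186, 196, 167 and 160 CPM in Ndrg3ctrl and at 176, 173, 180 and 164 in Ndrg3TKO. All Ndrg3TKO values fell inside the Ndrg3ctrl range (log2 difference -0.04, SE 0.0637, interval 0.888 to 1.07-fold, edgeR adjusted p = 0.887). Vhl, the substrate receptor of the ubiquitin ligase, was at 35.4, 31.8, 26 and 30.2 CPM in Ndrg3ctrl and at 33.4, 33.8, 32.7 and 29.8 in Ndrg3TKO. Ndrg3ctrl replicate 3 was the lowest of the 8 (interval 0.926 to 1.19-fold, edgeR adjusted p = 0.814). Egln1, the main HIF prolyl hydroxylase in most cells, was at 63.2, 64.3, 55.6 and 56.1 CPM in Ndrg3ctrl and at 63.9, 61.3, 60.2 and 59.6 in Ndrg3TKO (interval 0.938 to 1.12-fold, edgeR adjusted p = 0.877). Egln2 ranged from 59.3 to 63.5 CPM, and Egln3, which HIF induces, from 5.37 to 7.12. Of the 3 hydroxylases, Egln2 led with 59% to 62.8% of the level per kilobase of mRNA.

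The 8 HIF target genes fell on both sides of zero, 4 higher and 4 lower, with a median log2 fold change of 0.002. Bnip3, a mitophagy receptor, was at 3.89, 3.73, 3.99 and 4.17 CPM in Ndrg3ctrl and at 3.15, 4.05, 3.91 and 4.57 in Ndrg3TKO. Ndrg3TKO held both the lowest and the highest value (interval 0.803 to 1.23-fold, edgeR adjusted p = 0.989). Its relative Bnip3l ranged from 119 to 140 CPM. Ero1l, an oxidase of the endoplasmic reticulum, was at 48.5, 44.8, 46.9 and 43.6 CPM in Ndrg3ctrl and at 48.1, 50.5, 49.6 and 49.8 in Ndrg3TKO. All Ndrg3TKO libraries but replicate 1 exceeded all Ndrg3ctrl libraries (log2 difference 0.11, SE 0.0537, edgeR adjusted p = 0.497).

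Kdm3a, a histone demethylase, ranged from 153 to 164 CPM, P4ha1, a collagen prolyl hydroxylase, from 41.4 to 54.8, and Mxi1, a MAX partner, from 10.9 to 14.8. Ankrd37, often used as a marker of HIF activity, ranged from 2.85 to 4.77 CPM and differed by -0.22 on the log2 scale (SE 0.174, edgeR adjusted p = 0.686). P4ha2 rested on 2 to 16 counts per library, too few to show any but a large difference (interval 0.446 to 1.5-fold). Among the 4 genes whose windows are printed above, Ldha stood at 229 CPM per kb of mRNA, Ankrd37 at 3.85, Bnip3 at 2.24 and Slc16a3 at 0.847, and all had the ACGTG core.

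For the glycolytic enzymes, single libraries stood high or low for many genes at once. Ndrg3ctrl replicate 2 was the highest of the 4 Ndrg3ctrl libraries for 13 of the 17 enzymes from hexokinase to lactate dehydrogenase, and Ndrg3TKO replicate 2 the highest of its 4 for 11 of 17. The median log2 deviation of the 17 enzymes from the mean of 8 libraries was 0.172 in Ndrg3ctrl replicate 2 and 0.053 in Ndrg3TKO replicate 2, and between -0.058 and -0.004 in the other six. The summed level was 3530 and 3380 CPM in these libraries and 2960 to 3170 in the others. The 8 HIF targets had median deviations of -0.048 in Ndrg3ctrl replicate 2, the lowest of its 4 libraries for 4 of 8 genes, and 0.056 in Ndrg3TKO replicate 2, the highest of its 4 for 3 of 8. For the 5 genes of oxygen sensing these medians were 0.089 and -0.002. Ndrg3ctrl replicate 2 was also the shallowest library, and both replicate 2 libraries held Y-linked reads and the highest proliferation sums of their groups. Ndrg3TKO replicate 3 held Y-linked reads and the lowest proliferation sum, with the enzymes at a deviation of -0.004. The part of depth, sex and proliferation in these values was not tested.

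**Figure D5:**
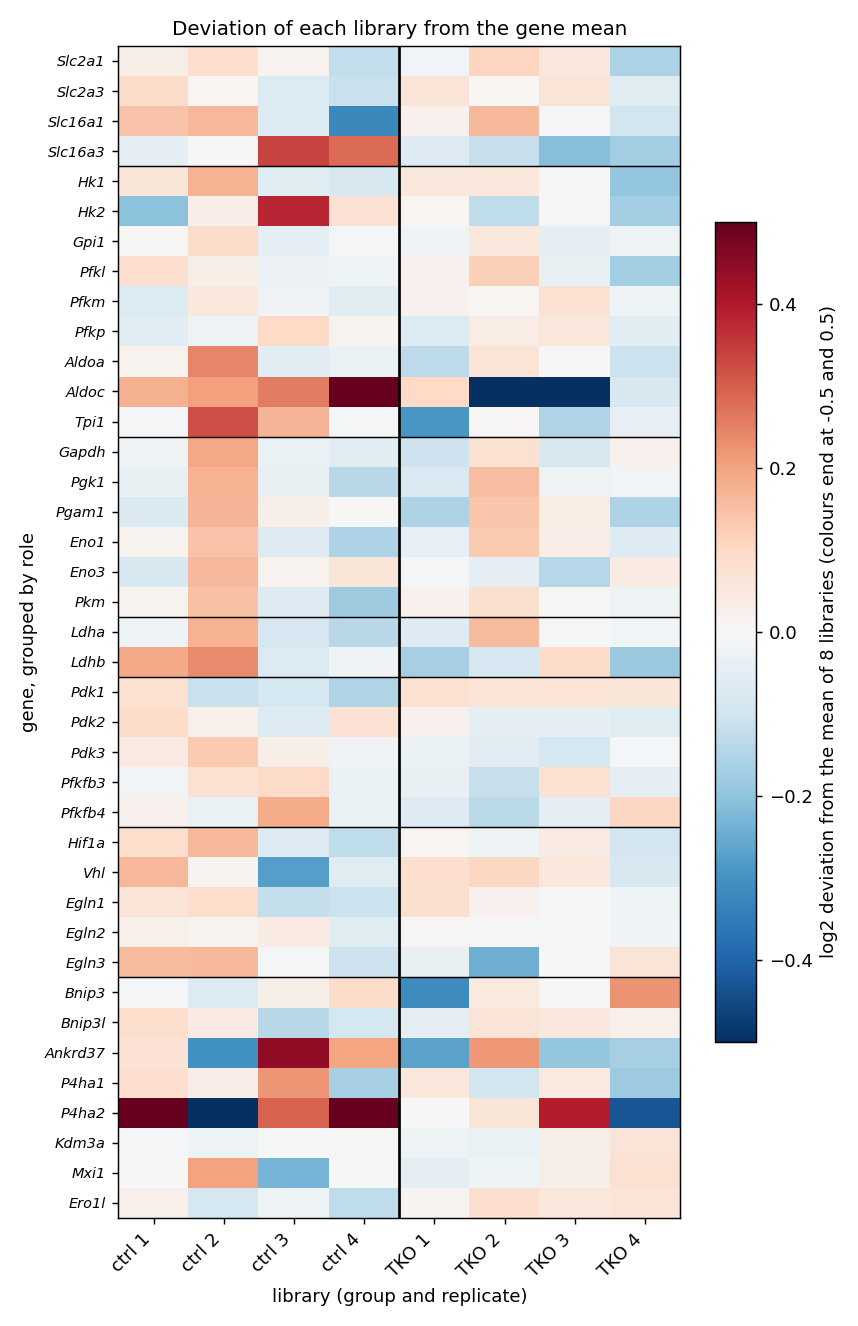
Deviation of each library from the mean of 8 libraries for the 39 genes (log2 of normalised CPM, colours end at -0.5 and 0.5), grouped by role, with Ndrg3ctrl left and Ndrg3TKO right of the vertical line. The second Ndrg3ctrl column is red for most glycolytic enzymes, and Aldoc and P4ha2 scatter most.

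Other genes of the pathway were read from 7 further lists with 97 genes, of which 74 could be tested. Of these 74, 1 passed, against 1.15% of all tested genes. The groups did not overlap for 9 of the 74, against 7.04% of all tested genes. Ndrg1, a paralogue of Ndrg3 and a known hypoxia-induced gene, was at 76.2, 86.3, 71.5 and 75.9 CPM in Ndrg3ctrl and at 51.1, 61.5, 54.9 and 53.3 in Ndrg3TKO. The groups did not overlap, and Ndrg1 fell by 0.49 on the log2 scale (SE 0.0692, edgeR adjusted p = 0.00209). It was the only called gene among 20 tested of 28 other HIF targets, whose median log2 fold change was -0.071. The list that holds Ndrg1 was chosen with earlier results of these data known, so this call is not independent of them.

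Several classic HIF targets were almost unread. Car9 had at most 13 counts in any library, Ak4 15, Adm 1, Stc2 2 and Ndufa4l2 1, and Higd1b had 0 in all 8. A count of 0 allows up to 3 counts, or 0.0918 to 0.142 CPM by library. Vegfa, which was tested, reached 0.468 to 0.952 CPM. Ddit4, in contrast, was at 115 to 178 CPM and Mif at 73.8 to 102.

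Some isozymes known from other tissues were at or near 0. Pklr of liver and Pgk2 and Ldhc of testis had 0 counts in every library, and Pgam2, Hkdc1 and Pdk4 had at most 3 in any library. The 8 tested of 16 other isozymes gave 0 called, and among them Bpgm, Pfkfb2 and Pfkfb1 were read at 15.7 to 18.5, 13.7 to 18.1 and 3 to 5.07 CPM. Eno2, the neuronal enolase, was named after its values were seen. It was at 2.45, 1.92, 2.71 and 3.58 CPM in Ndrg3ctrl and at 4.87, 3.64, 4.91 and 3.78 in Ndrg3TKO, without overlap, and differed by 0.68 (log2, SE 0.188) with an adjusted p = 0.13 by edgeR and 0.0396 by DESeq2.

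All 7 genes of the pentose phosphate pathway were tested and 0 passed, with log2 differences from -0.10 to 0.07. Of 11 genes for pyruvate entry and pyruvate dehydrogenase, 10 were tested and 0 passed, all with intervals within 1.25-fold. Of 10 other genes of glucose and lactate transport, 6 were tested and 0 passed. Emb, a chaperone of MCT proteins, was at 175 to 203 CPM in Ndrg3ctrl and 208 to 223 in Ndrg3TKO (log2 difference 0.16, SE 0.0576, edgeR adjusted p = 0.272). Bsg, another such chaperone, ranged from 86.7 to 109 CPM.

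Of 15 other HIF pathway regulators, 14 were tested and 0 passed. Arnt, the partner of HIF-1α, was at 108 to 115 CPM in Ndrg3ctrl and 119 to 122 in Ndrg3TKO (log2 difference 0.11, SE 0.0446, edgeR adjusted p = 0.382). Hif3a, Epas1, Arnt, Emb and Myc are named here after their values were seen. Hif3a was at 16.6, 15, 15.5 and 16.5 CPM in Ndrg3ctrl and at 16.2, 10.8, 11.1 and 11.9 in Ndrg3TKO, where replicate 1 stood apart from the rest (log2 difference -0.35, SE 0.119, edgeR adjusted p = 0.261, and 0.018 without Ndrg3TKO replicate 1). Of the 8 fits that left out a library, only that one called Hif3a. Epas1, which encodes HIF-2α, was at 1.98 to 2.78 CPM in Ndrg3ctrl and 0.754 to 1.79 in Ndrg3TKO (log2 difference -0.86, SE 0.271, edgeR adjusted p = 0.201). Of 10 transcription factors known to drive glycolytic genes, 9 were tested and 0 passed, and Myc was at 115 to 157 CPM in Ndrg3ctrl and 102 to 127 in Ndrg3TKO (log2 difference -0.23, SE 0.0978, edgeR adjusted p = 0.428).

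Reads over shared sequence could enter these counts. Gapdh has 72 near-identical copies elsewhere in the annotation, which together held 0.908% as many counts as Gapdh, and the highest such share among the members was 1.97% for Bnip3. Exonic bases shared with another gene made up 26.4% of Ankrd37, 22.3% of Bnip3, 15.3% of Pkm, 11.5% of Gpi1, 10.7% of Pfkm and 8.11% of Hif1a.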

How the data were processed

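RNA-seq libraries from sorted thymocytes were made with a stranded total RNA kit after ribosomal RNA removal. Reads were trimmed with cutadapt, aligned to GRCm38.p4 with STAR and counted per gene with featureCounts by the authors in the snakePipes workflow, and they deposited raw counts per Ensembl gene. Versions of the single tools and the strand setting of the counting were not given in the sources used here. The gene IDs were matched to GENCODE M21 symbols (47224 of 47937), and gene lengths and overlaps come from that release, which is later than the M9 release the authors used. Genes were filtered with filterByExpr, scaled by TMM and tested with the quasi-likelihood F-test of edgeR 4.0.16 in R 4.3.3 (8 libraries, no covariate), with Benjamini-Hochberg adjustment over 14633 genes and a threshold of 0.05. SE was derived from the fold change and its F statistic. Normalised CPM uses the TMM library sizes. The scripts were tested on simulated data. Alternatives were DESeq2 1.42.0, other scalings and filters, a replicate block, a Y-linked covariate and leaving out each library.

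The members and gene lists were chosen with earlier results of these data known. Genes described with full values were Ndrg3, any member past the threshold, the 8 members of smallest p, 11 further genes (Hif1a, Vhl, Egln1, Slc2a1, Slc16a1, Hk2, Ldha, Ldhb, Pkm, Pdk1 and Bnip3) and related genes past the threshold. A few related genes were added after their values were seen, as stated where they appear. The p-values set the difference between groups against the spread between 4 biological replicates per group. In edgeR the spread of each gene was moderated toward that of other genes. Intervals cover counting error and the spread between these libraries only. No pair of libraries within a group agreed within sampling noise, with chi-square per gene of 9.95 to 33.6. Copies were searched with BLAST 2.17.0, and promoter windows came from RefSeq (GRCm38.p6).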

Additional observations from a re-analysis of the deposited data

Results flagged for a closer look

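Among 82 groups of 4 libraries (39 members, Ndrg3 and Ndrg1, in each genotype), 2 had a library far from the other three, where about 1 in 20 such groups would be by chance. Gapdh was at 590 CPM in Ndrg3ctrl replicate 2 and at 495 to 509 in the other Ndrg3ctrl libraries. Aldoc was at 1.06 CPM in Ndrg3ctrl replicate 4 and at 0.771 to 0.812 in the other Ndrg3ctrl libraries.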

How the results depend on the processing

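All 16 named members kept their side of the threshold under each of 15 alternatives (Aldoc was not tested at a mean count of at least 50), except Tpi1 with a replicate block (log2 fold change -0.24, adjusted p = 0.0181), and the median of the members ranged from -0.051 to -0.009, each within 0.0455 (SD between libraries) of the reported -0.029. Ndrg3 and Ndrg1 passed in every alternative. The number called among all genes was 309 by DESeq2, 274 without the filter, 437 with the Y-linked covariate, 800 (5.47%) with the block, and 90 to 158 without single libraries. Members called were 0 in all alternatives but the block, where the count was 1 (in upper glycolysis). Same-numbered libraries deviated together with r = 0.171, 0.394, -0.0579 and 0.281 for replicates 1 to 4, with a mean of 0.197 against -0.0642 for differently numbered libraries, and 6 of 8 libraries correlated best with their own number, both replicate 3 libraries being the exceptions. The labels name no shared litter or day, so pairing was not established and remains a hint from the data. Sample numbers in the headers of the counts fall in runs of close numbers, each with both genotypes. Replicates 2 and 3 of both groups share 1 run, so the replicate block does not follow these runs. What the numbers stand for was not given, and a block by run was not tested. Of related genes, Eno2 was also called by DESeq2, without the filter, with the block and with the Y-linked covariate (1 of its list in each). With the block 2 other HIF regulators (Hif3a and Epas1), 2 other HIF targets (Ndrg1 and Mif) and 1 transcription factor (Myc) were called. With the Y-linked covariate 2 other HIF targets (Ndrg1 and Mif) and 1 transcription factor (Myc) were called. Other HIF regulators numbered 0 to 1 without single libraries, Hif3a being called only without Ndrg3TKO replicate 1. The causes were not tested. Differences near 0 changed sign: Slc2a1 was 0.00246 with library totals alone, Slc16a1 -0.00946 and Ldha -0.00589 with the Y-linked covariate, and without single libraries Slc2a1 ranged from -0.04 to 0.05, Slc16a1 from -0.06 to 0.09, Ldha from -0.01 to 0.10, Pkm from -0.02 to 0.09, Hif1a from -0.08 to 0.01, Vhl from -0.00285 to 0.15 and Bnip3 from -0.09 to 0.08. Depth limits Aldoc and P4ha2.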
